A study of Mus musculus with 8 samples.

Results

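The centrosome and centriole genes described here are the 31 of 18306 genes in the deposited count table whose symbol begins with Cep followed by a digit (20 genes) or is one of Sass6, Stil, Cenpj, Pcnt, Cdk5rap2, Pcm1, Cntrob, Haus1, Haus3, Haus6 and Odf2 (11 genes). They were measured by RNA sequencing in C3H10T1/2 cells, an established mouse mesenchymal line, after 24 h with 5 µM sphingosine 1-phosphate (S1P), a lipid that acts on G protein-coupled receptors, or with the vehicle. Both groups, of 4 S1P libraries (replicates 5 to 8) and 4 vehicle libraries (replicates 1 to 4), had first spent 24 h without serum. All libraries come from this single line. Separate cultures are not stated in the labels, and p-values therefore cover only the spread between these libraries, which may be technical.

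The centrosome organises microtubules around a pair of centrioles, barrel-shaped structures that are copied once per cell cycle and that also serve as the base of the primary cilium. Copying is started by the kinase Plk4, which acts with Stil and Sass6 to build the cartwheel that seeds a new centriole, while Cep192 and Cep152 bring Plk4 to the parent centriole. Pcnt and Cdk5rap2 form the pericentriolar material that anchors gamma-tubulin, augmin (the HAUS complex) adds microtubules within the spindle, and Cep55 acts at the midbody when daughter cells separate. Transcripts of several of these genes are known to be most abundant in late cell cycle phases.

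Library totals lay between 13750303 and 13761544 counts, and CPM below means counts scaled to a library total of 1000000, with TMM composition factors. All 10 mesenchymal markers examined were expressed, with summed levels of 14414 to 19814 CPM in S1P libraries and 17945 to 24802 CPM in vehicle libraries. The 5 blood cell markers found summed to at most 1.92 CPM in any library, and of the endothelial markers Pecam1, Cdh5, Kdr and Vwf reached at most 0.426 CPM in any library, while Tek, which did not pass the test, averaged 31.2 CPM in S1P libraries and 54.8 CPM in vehicle libraries. The endothelial markers summed to 17.4 to 44.0 CPM in S1P libraries and 36.5 to 76.9 CPM in vehicle libraries, and the epithelial ones to 1.47 to 2.18 CPM in S1P libraries and 1.11 to 2.83 CPM in vehicle libraries. Their part in the results was not tested. Vehicle replicate 4 stood apart from the other vehicle libraries: its deviation from them followed the GC content of the genes (r = 0.78 across tested genes, which are not independent replicates), and mitochondrially encoded genes took 2.5% of its counts, against 3.45% to 3.83% in the other libraries.

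Promoter stretches of 3 members that rose after S1P are shown because each holds a motif searched for, and they do not stand for the whole set. Each is the stretch of 250 bases before a RefSeq start site in GRCm38.p6 (for Cep55, only the 30 bases around its match within such a window), printed 5′ to 3′ on the gene's strand. Capitals mark matches on either strand to CCAAT (or ATTGG), the box bound by NF-Y, and to TTTGAA (or TTCAAA), the sequence of the cell cycle genes homology region, CHR. Another sequence searched, the E2F-type GCGGGAA (or TTCCCGC), has no match in the stretches shown.
Stil, chromosome 4, 114999868 to 115000117, plus strand: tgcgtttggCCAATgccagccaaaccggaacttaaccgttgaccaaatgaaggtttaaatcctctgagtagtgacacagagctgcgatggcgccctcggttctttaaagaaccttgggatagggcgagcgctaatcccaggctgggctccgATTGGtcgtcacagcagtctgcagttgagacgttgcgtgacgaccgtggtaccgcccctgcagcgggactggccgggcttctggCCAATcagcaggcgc
Haus6, chromosome 4, 86612056 to 86612305, minus strand: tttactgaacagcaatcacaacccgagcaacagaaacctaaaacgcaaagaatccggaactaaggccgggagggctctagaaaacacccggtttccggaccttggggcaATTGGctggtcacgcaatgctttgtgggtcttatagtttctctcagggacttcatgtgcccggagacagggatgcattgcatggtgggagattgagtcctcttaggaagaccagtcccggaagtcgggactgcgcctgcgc
Cep55, chromosome 19, 38054996 to 38055025, plus strand: acagccgcgggaTTCAAActcccggaagcg

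Stil carried 3 CCAAT matches, whose last bases lay 237, 95 and 11 bases before the start site, and Haus6 carried 1 at 137 bases. The TTCAAA of Cep55 ended 28 bases before one of its listed starts. RefSeq promoters were found for 24 of the 31 members, and a gene counted as holding a motif when any of its windows did. CCAAT was found in 13 of the 24 members (54.2%), against 41.2% of the 9251 tested genes matched and 37.5% of all 27025 genes in the table. GCGGGAA was found in 7 members (29.2%), against 8.33% of tested genes and 4.38% of all genes. TTTGAA was found in 6 (25%, against 12.6% and 18.3%) and TTCGAA, searched as another CHR form, in 1 (4.17%, against 2.17% and 1.55%). Among the 11 matched members that rose, 6 held CCAAT, 4 GCGGGAA and 3 TTTGAA. Among the other 13 matched members, 7 held CCAAT, 3 GCGGGAA and 3 TTTGAA. Each of these 3 motifs was present in members that passed the test and in members that did not, and a match describes the letters of the window alone.

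All 31 members passed the filter on low counts. After S1P 12 of them rose and none fell (edgeR quasi-likelihood test, Benjamini-Hochberg adjusted over all 11844 tested genes), while over all tested genes 5.6% rose and 2.9% fell, 8.5% in either direction. None was lower at an unadjusted p under 0.05 either, where 17 were higher, against 11.7% of all tested genes lower and 13.2% higher at that threshold, and DESeq2 and limma-voom also called none lower. The median log2 fold change (S1P minus vehicle) of the members was 0.47, against -0.04 over all tested genes. The members' median GC content was lower, at 45.0% against 49.8%. Log2 fold changes fell with GC content over all tested genes (r = -0.35) and over the members (r = -0.38, or -0.18 without vehicle replicate 4). The part of GC content in the members' median was not tested. The S1P libraries lay wholly above the vehicle libraries for 16 members and wholly below for none, where 11.9% of all tested genes lay wholly above and 7.21% wholly below. In bulk RNA, more cells in a given cell cycle phase and more RNA per cell cannot be told apart.

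**Figure D1:**
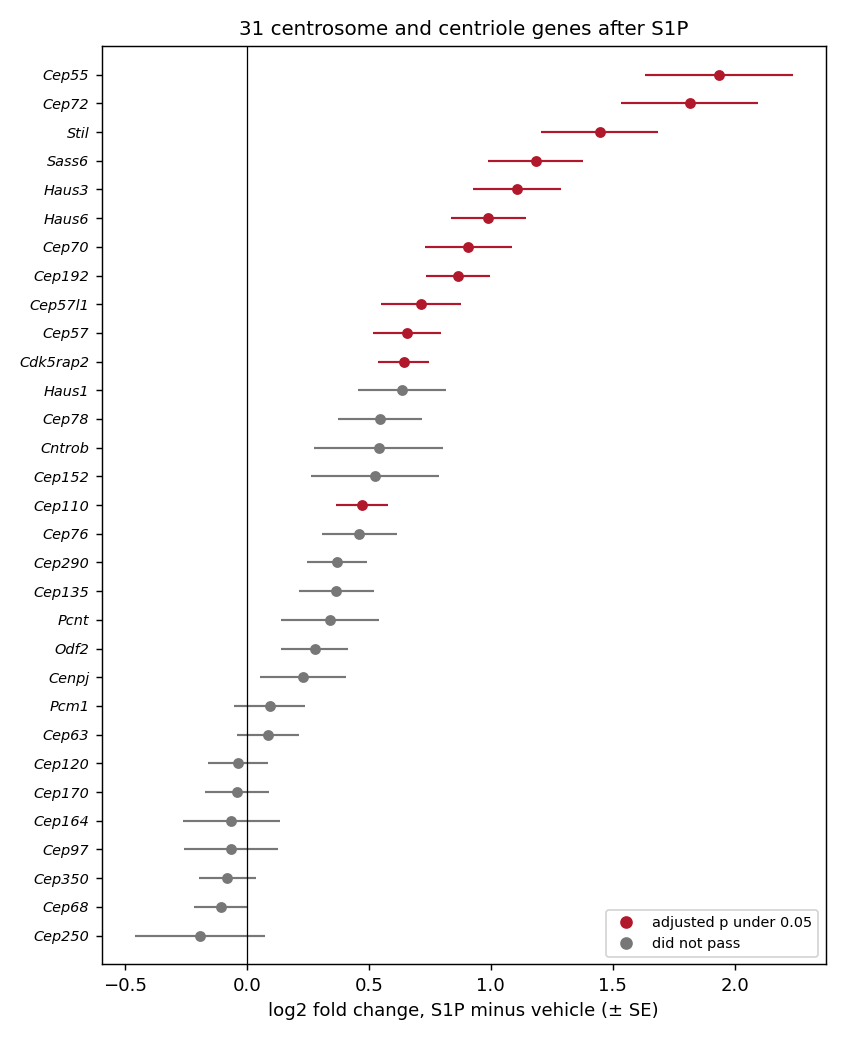
Log2 fold change, S1P minus vehicle, on the horizontal axis for each of the 31 members, ordered by size, with bars of 1 standard error. The 12 members in red rose and range from 0.47 for Cep110 to 1.94 for Cep55, and the lowest value is -0.19 for Cep250.

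Cep55, which recruits the abscission machinery to the midbody (chromosome 19, 38129315 to 38149115 in mm9, the build of the deposited coordinates), showed the largest change of the set. S1P libraries held 65.7, 84.6, 78.7 and 94.8 CPM of it, against 9.16, 21.8, 28.6 and 25.1 CPM in vehicle libraries. The groups were far apart, and vehicle replicate 1 was the lowest library. The rise was 3.82-fold (log2 fold change 1.94, SE 0.30, edgeR adjusted p = 0.00597).

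The cartwheel genes Stil and Sass6 rose, as did the kinase that starts centriole copying. Stil (chromosome 4, 114672523 to 114716001) stood at 40.8, 51.2, 43.7 and 52.0 CPM in S1P libraries and at 9.31, 20.5, 21.5 and 17.6 CPM in vehicle libraries, a 2.73-fold rise (log2 fold change 1.45, SE 0.24, edgeR adjusted p = 0.00723). For Sass6, the cartwheel hub itself (chromosome 3, 116297726 to 116334102), the levels were 13.4, 18.7, 17.4 and 16.1 CPM after S1P and 5.26, 8.46, 8.14 and 6.97 CPM with vehicle, a 2.27-fold rise (log2 fold change 1.18, SE 0.20, edgeR adjusted p = 0.00709). In both genes the groups did not overlap, and vehicle replicate 1 was again the lowest library. The span of Sass6 overlaps those of Ccdc76 (mean 3.95 CPM) and Hiat1 (mean 61.3 CPM). The rule for reads shared by overlapping genes is unknown here. Plk4, which the symbol rule does not take, rose 2.71-fold, with 66.6, 83.0, 76.3 and 86.3 CPM in S1P libraries and 19.2, 32.4, 36.4 and 27.2 CPM in vehicle libraries (log2 fold change 1.44, SE 0.19, edgeR adjusted p = 0.00355). Stil, Sass6 and Plk4 were called in each of 8 fits with 1 library removed.

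Of the factors that bring Plk4 to the parent centriole, Cep192 passed the test and Cep152 did not. Cep192 (chromosome 18, 67959561 to 68045022) measured 93.1, 108, 103 and 108 CPM in S1P libraries, against 58.1, 59.1, 64.7 and 44.2 CPM in vehicle libraries, a 1.82-fold rise (log2 fold change 0.87, SE 0.13, edgeR adjusted p = 0.00514). Cep152 measured 10.3, 15.4, 15.1 and 17.8 CPM in S1P libraries and 7.17, 7.49, 12.4 and 13.7 CPM in vehicle libraries, with overlapping groups (log2 fold change 0.53, SE 0.26, edgeR adjusted p = 0.249). Cep63, a partner of Cep152, had a log2 fold change of 0.09 (SE 0.13, edgeR adjusted p = 0.688), and its span overlaps that of Anapc13.

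Genes that lengthen or cap the new centriole did not pass in edgeR with all libraries. Cenpj, which adds centriolar microtubules, measured 27.5, 30.02, 31.9 and 32.9 CPM in S1P libraries and 21.2, 28.1, 34.6 and 20.5 CPM in vehicle libraries, so that the S1P range fell inside the vehicle range (log2 fold change 0.23, SE 0.18, edgeR adjusted p = 0.446). Cep135, a cartwheel and centriole wall component, had a log2 fold change of 0.37, Cep76 0.46, Cep120 -0.04 and Cep97, which with Cp110 caps the centriole, -0.06 (edgeR adjusted p = 0.18, 0.0968, 0.876 and 0.856). Cep76 passed in DESeq2 (adjusted p = 0.0479) and in edgeR with a surrogate variable (adjusted p = 0.0345). Cntrob, a daughter centriole protein, measured 15.02, 17.2, 13.95 and 14.2 CPM in S1P libraries against 7.96, 7.12, 9.54 and 16.9 CPM in vehicle libraries (log2 fold change 0.54, edgeR adjusted p = 0.242). Its only overlap came from vehicle replicate 4, and the span of Cntrob overlaps that of Trappc1, which is more abundant (mean 48.9 CPM).

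Cep57 and its paralogue Cep57l1, which help hold centriole pairs and their surrounding material together, rose by less. Cep57 was at 46.9, 53.4, 52.8 and 52.7 CPM in S1P libraries and 31.8, 33.2, 39.6 and 25.9 CPM in vehicle libraries, a 1.58-fold rise (log2 fold change 0.66, SE 0.14, edgeR adjusted p = 0.0194). Cep57l1 was at 19.1, 23.0, 22.0 and 23.6 CPM in S1P libraries and 11.4, 15.9, 15.02 and 11.1 CPM in vehicle libraries, a 1.64-fold rise (log2 fold change 0.71, SE 0.16, edgeR adjusted p = 0.0274). The groups were separate in both, but Cep57 lost its call when any one of S1P replicates 6, 7 and 8 and vehicle replicates 1 and 2 was removed, and Cep57l1 when any one of S1P replicates 6, 7 and 8 and vehicle replicate 1 was (edgeR adjusted p of up to 0.0729 and 0.0984). In all, 5 of the 13 members grouped as genes of centriole assembly and duplication rose and 8 did not pass.

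**Figure D2:**
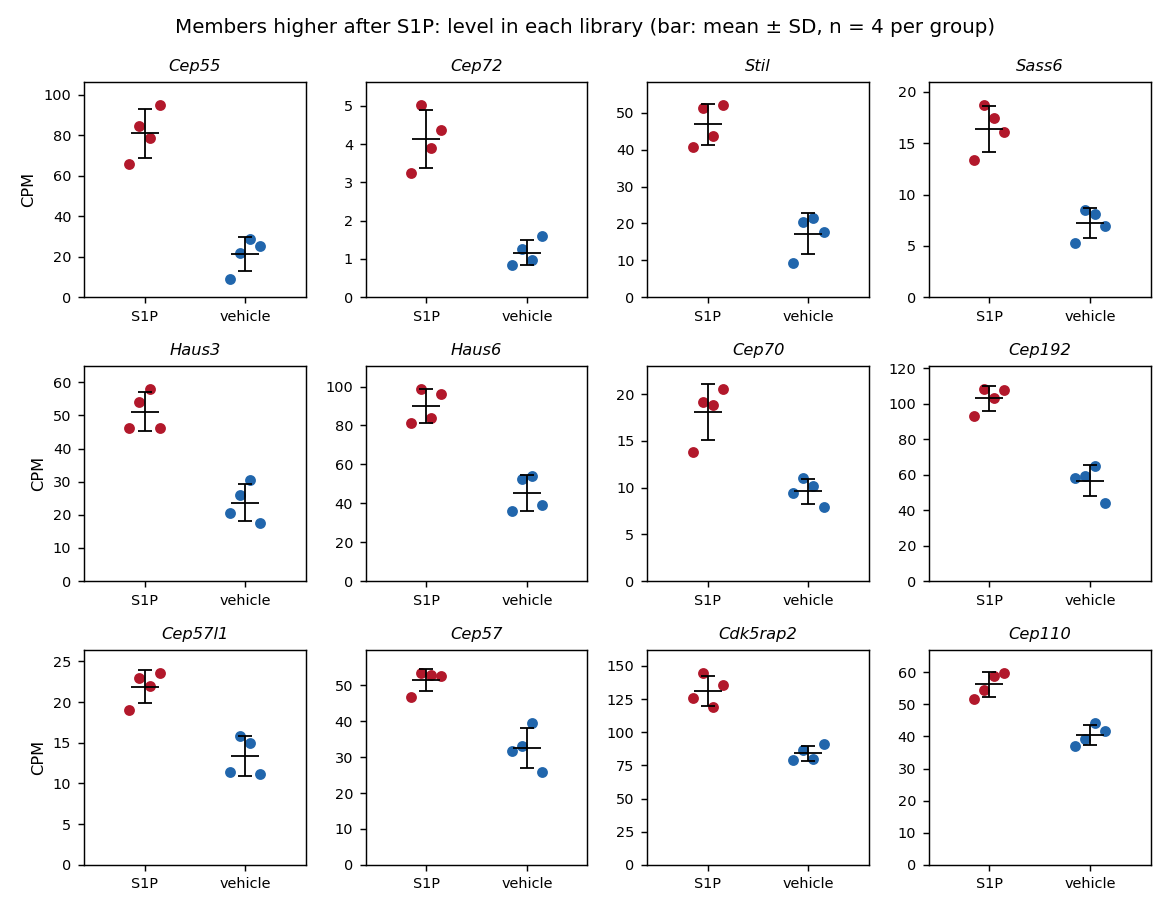
Level in CPM (vertical axis, from 0) of the 12 members that rose, in each S1P library (red) and each vehicle library (blue), with the group mean and SD (n = 4 each). In every panel the lowest S1P library lies above the highest vehicle library.

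In the pericentriolar material, Cdk5rap2 rose and Pcnt did not pass. Cdk5rap2, which activates gamma-tubulin complexes (chromosome 4, 69877690 to 70071677), measured 126, 145, 119 and 135 CPM in S1P libraries and 78.7, 86.9, 79.7 and 90.8 CPM in vehicle libraries, a 1.56-fold rise with a narrow spread (log2 fold change 0.64, SE 0.10, edgeR adjusted p = 0.00671). Pcnt (chromosome 10, 75813799 to 75905857) measured 55.7, 57.6, 53.9 and 52.5 CPM in S1P libraries and 35.9, 37.7, 34.7 and 65.2 CPM in vehicle libraries. The S1P libraries were above vehicle replicates 1 to 3 and below vehicle replicate 4 (log2 fold change 0.34, SE 0.20, edgeR adjusted p = 0.318). Without vehicle replicate 4 the log2 fold change of Pcnt was 0.61 and its adjusted p in edgeR was 0.0038. Cep170 and Cep350, long proteins that anchor microtubules at the centrosome, had log2 fold changes of -0.04 and -0.08 (edgeR adjusted p = 0.876 and 0.692).

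The augmin members rose or were higher without passing. Haus3 (chromosome 5, 34496370 to 34512294) measured 46.1, 54.1, 57.9 and 46.3 CPM in S1P libraries and 20.7, 26.1, 30.5 and 17.6 CPM in vehicle libraries, a 2.16-fold rise (log2 fold change 1.11, SE 0.18, edgeR adjusted p = 0.00694). Haus6 (chromosome 4, 86224559 to 86258159) measured 81.5, 98.6, 83.9 and 96.0 CPM in S1P libraries and 36.0, 52.3, 53.9 and 39.0 CPM in vehicle libraries, a 1.99-fold rise (log2 fold change 0.99, SE 0.15, edgeR adjusted p = 0.00578). Neither gene's groups overlapped. Haus1 measured 27, 33.2, 21.7 and 27.5 CPM in S1P libraries and 18.5, 21.2, 17.2 and 13.5 CPM in vehicle libraries, and missed the threshold although its groups were separate (log2 fold change 0.63, SE 0.18, edgeR adjusted p = 0.0594). Of the 5 augmin subunits outside the rule, Haus8 rose 2.14-fold (edgeR adjusted p = 0.0109) and Haus2, Haus4, Haus5 and Haus7 had log2 fold changes of 0.32 to 0.49 without passing. The span of Haus8 overlaps that of Myo9b, which is more abundant (mean 94.6 CPM). Without vehicle replicate 4, 3 of these 5 subunits were called higher.

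Among satellite and ciliary base genes, the least abundant member per length rose. This was Cep72, which recruits other proteins to satellites and pericentriolar material (chromosome 13, 74173743 to 74199933). It measured 3.25, 5.02, 3.89 and 4.38 CPM in S1P libraries and 0.852, 1.26, 0.962 and 1.598 CPM in vehicle libraries, a 3.52-fold rise (log2 fold change 1.82, SE 0.28, edgeR adjusted p = 0.00554). These levels rest on 45 to 69 counts per S1P library and 12 to 22 counts per vehicle library, so each value carries more counting error than those of the other members. Pcm1, the satellite scaffold and the most abundant member per length, measured 225, 252, 280 and 261 CPM in S1P libraries and 243, 258, 274 and 179 CPM in vehicle libraries, with overlapping groups (log2 fold change 0.09, SE 0.14, edgeR adjusted p = 0.711). Cep78 and Cep290, a gatekeeper of the ciliary transition zone, were higher in every S1P library than in any vehicle library but did not pass (log2 fold change 0.55 and 0.37, edgeR adjusted p = 0.0849 and 0.0991). The span of Cep290 overlaps that of 4930430F08Rik.

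Appendage and linker genes mostly did not pass. Cep110, whose current symbol is Cntrl and which encodes centriolin of the mother centriole, measured 51.6, 54.4, 59.0 and 59.8 CPM in S1P libraries and 37.1, 39.1, 44.1 and 41.8 CPM in vehicle libraries, a 1.39-fold rise (log2 fold change 0.47, SE 0.11, edgeR adjusted p = 0.0253). The call was lost when any one of S1P replicates 6, 7 and 8 and vehicle replicates 1 and 2 was removed (edgeR adjusted p of up to 0.0969). Odf2, a base of the appendages, measured 77.0, 80.2, 74.9 and 86.6 CPM in S1P libraries and 58.0, 59.7, 60.9 and 84.2 CPM in vehicle libraries, where vehicle replicate 4 alone reached the S1P range (log2 fold change 0.28, SE 0.14, edgeR adjusted p = 0.243). Cep164, a distal appendage protein needed for cilia, and Cep250 and Cep68, which tether the centrosomes of a cell, had log2 fold changes of -0.06, -0.19 and -0.11 (edgeR adjusted p = 0.863, 0.675 and 0.574). The span of Cep68 overlaps that of Rab1, which is more abundant (mean 389 CPM). Cep70, a coiled-coil protein of the centrosome, rose 1.88-fold, with 13.8, 19.2, 18.9 and 20.5 CPM in S1P libraries and 9.38, 11.1, 10.2 and 7.92 CPM in vehicle libraries (log2 fold change 0.91, SE 0.18, edgeR adjusted p = 0.0144). Removing any one of S1P replicates 6, 7 and 8 ended the call (edgeR adjusted p of up to 0.059).

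Members differed in how vehicle replicate 4 placed them. That library lay above the other 3 vehicle libraries for 9 members and below them for 16. Across the 31 members its log2 deviation from the other vehicle libraries went with the GC content of the transcripts (Pearson r = 0.78, Spearman rho = 0.69, a description in which the points share the same 4 libraries). Pcnt, Cntrob, Odf2, Cep164 and Cep250 have transcripts of 52.5% to 56.9% GC and were highest there, while Haus3, Cep290 and Pcm1 have 36.9% to 41.8% and were lowest there. Leaving this library out gave 17 members higher, adding Pcnt, Odf2, Cntrob, Cep78 and Haus1 (edgeR adjusted p of 0.0038, 0.0107, 0.0068, 0.0286 and 0.048). An offset for GC content, fitted over all 8 libraries, gave the same 17. It acts on the GC-linked shift, strongest in vehicle replicate 4, so it is not independent of removing that library. With it log2 fold changes were smaller for some members (Cep192 0.71, Haus6 0.84, Cep57 0.50) and larger for others (Pcnt 0.52, Odf2 0.37). Without S1P replicate 5 or vehicle replicate 3 there were 12, as with all libraries, and removing any of the remaining libraries lowered the count. Without S1P replicate 6, 7 or 8 there were 8 members higher, in each case without Cep57, Cep57l1, Cep70 and Cep110. Without vehicle replicate 1 there were 9 (Cep57, Cep57l1 and Cep110 lost), and without vehicle replicate 2 there were 10 (Cep57 and Cep110 lost). The count of all genes called higher was 663 with all libraries, 1133 without vehicle replicate 4 and 1067 with the GC offset. It was 333, 408 and 360 without S1P replicates 6, 7 and 8 in turn, and 583 without S1P replicate 5. Without vehicle replicates 1, 2 and 3 in turn it was 489, 461 and 582.

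**Figure D3:**
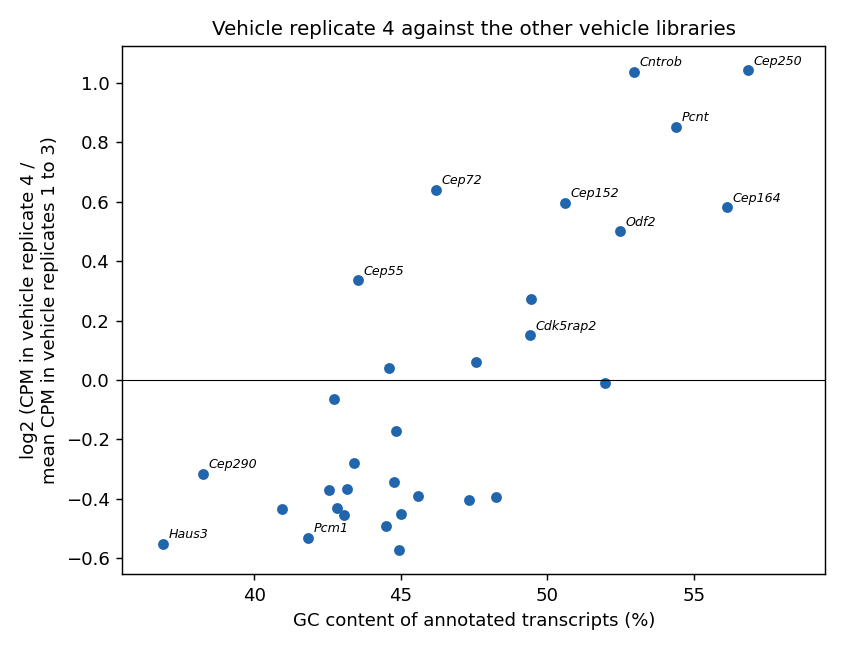
Log2 ratio of CPM in vehicle replicate 4 to the mean of vehicle replicates 1 to 3 (vertical axis) against the GC content of annotated transcripts in % (horizontal axis) for the 31 members. GC-rich members such as Cep250, Cntrob and Pcnt lie above 0 and AT-rich members such as Haus3 and Pcm1 lie below 0 (r = 0.78).

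Levels per length were compared as mean CPM over all 8 libraries per kilobase of annotated exon (GENCODE M21, whose gene models are those of mm10). Pcm1 led at 33.1, followed by Cep55 at 17.6, Cep170 at 12.2, Haus6 at 10.5 and Cep57 at 10.1. The order differed between the groups: Cep55 stood at 27.9 CPM per kilobase in S1P libraries, next to Pcm1, and at 7.29 in vehicle libraries, where Cep170 (12.4), Cep68 (9.47), Cep57 (7.80) and Cep350 (7.54) were above it. Cep72 was lowest at 0.324, and Cntrob, Sass6, Cep97 and Cep152 lay between 1.91 and 2.16. The members' median was 4.67 CPM per kilobase, against 6.56 over all tested genes, and their median exon length was 7167 bases, against 4583 bases. The longest was Cep170 at 18049 bases, and the difference in length was not tested.

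Companion genes of the centrosome were counted in lists. Some genes are on several lists, and differences between the lists were not tested. Of 24 tested genes in a list of centriole duplication, centrosome separation and spindle genes, 12 rose and none fell. Over all tested genes 5.6% rose and 2.9% fell. The list's median log2 fold change was 0.83, against -0.04 over all tested genes. In this list none was lower at an unadjusted p under 0.05 in edgeR, or called lower in DESeq2 and limma-voom. The largest rises were those of the spindle pole gene Aspm at 3.80-fold, the linker kinase Nek2 at 3.65-fold, the kinesin Kif2c at 3.57-fold, the kinase Aurka at 3.01-fold and its activator Tpx2 at 2.93-fold (edgeR adjusted p of 0.00305, 0.0046, 0.00419, 0.0203 and 0.01). Plk1 measured 39.5, 47.4, 39.9 and 48.8 CPM in S1P libraries and 6.54, 14.2, 16.2 and 37.0 CPM in vehicle libraries and did not pass, although the groups were separate (log2 fold change 1.25, SE 0.42, edgeR adjusted p = 0.102). With all libraries Plk1 did pass in DESeq2 (log2 fold change 1.22, adjusted p = 0.0296) and in limma-voom (1.51, adjusted p = 0.0417). It also passed in edgeR with GC offsets (adjusted p = 0.0104) or a surrogate variable (adjusted p = 0.00857). Without vehicle replicate 4 its log2 fold change was 1.84 and its adjusted p in edgeR 0.00657. The list held 6 called genes without S1P replicate 6 or 8, and Aurka, whose span overlaps that of Cstf1, lost its call without S1P replicate 6 or 8 or vehicle replicate 2 (edgeR adjusted p of up to 0.0661).

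Of 13 tested gamma-tubulin and anchoring genes, 2 rose: Nedd1, which targets the gamma-tubulin ring complex, 1.49-fold and the anchoring protein Nin 1.29-fold (edgeR adjusted p = 0.0227 and 0.036). None fell, while 5.6% of all tested genes rose and 2.9% fell. At an unadjusted p under 0.05 in edgeR, 5 genes of this list were higher and 1 was lower. Without S1P replicate 5, and without both it and vehicle replicate 4, 1 gene of this list was called lower. Tubg1, the main gamma-tubulin gene, measured 35.8, 36.9, 26.7 and 31.3 CPM in S1P libraries and 18.3, 17.0, 17.2 and 44.5 CPM in vehicle libraries, with vehicle replicate 4 the highest of all 8 (log2 fold change 0.43, edgeR adjusted p = 0.421). The span of Tubg1 overlaps that of Fam134c, which is more abundant (mean 104 CPM). No gene of this list was called when S1P replicate 6, 7 or 8 or vehicle replicate 1 was removed, and 1 when vehicle replicate 2 or 3 was. Removing vehicle replicate 4, using DESeq2 or adding a surrogate variable gave 5 each. The surrogate variable mainly marked vehicle replicate 4 (0.91, against -0.25 to -0.01 in the other libraries), so it is not independent of removing that library.

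A further 16 genes are Cep genes by their current symbols but carry other symbols in the deposited table, and are not members by the rule. Of these 3 rose: 4930534B04Rik (now Cep128, of the appendages) 2.38-fold, 5830418K08Rik (Cep295, of centriole assembly) 1.48-fold and BC088983 (Cep44) 1.43-fold (edgeR adjusted p = 0.00285, 0.0271 and 0.0456). They are 18.75% of the list, where 5.6% of all tested genes rose. None of the list fell, where 2.9% of all tested genes did. The S1P libraries held 38.0, 43.9, 39.5 and 40.9 CPM of 4930534B04Rik, against 13.8, 21.4, 16.9 and 16.3 CPM in vehicle libraries. Of the 3, it alone was called in all 8 fits with 1 library removed. The list held 1 called gene when S1P replicate 6, 7 or 8 or vehicle replicate 1 or 2 was removed, and 5 when vehicle replicate 4 was. Of all genes, 333 to 489 were called higher when S1P replicate 6, 7 or 8 or vehicle replicate 1 or 2 was removed. Without vehicle replicate 4 there were 1133, and with all libraries 663. The spans of 5830418K08Rik and BC088983 overlap those of Taf1d and Fbxo8.

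Ciliary genes outside the rule gave no calls in these tests. None of 17 tested satellite, appendage and ciliary base genes outside the rule passed in edgeR, DESeq2 or limma-voom, and none had an unadjusted p under 0.05, with a median log2 fold change of 0.07. None of 16 tested intraflagellar transport genes, which carry cargo along the cilium, passed in edgeR, DESeq2 or limma-voom, and 1 was higher and 1 lower at an unadjusted p under 0.05, with a median of -0.03. At that unadjusted threshold 13.2% of all tested genes were higher and 11.7% lower, 24.9% in either direction. Other settings made single calls: 1 gene of the satellite list was higher with GC offsets, with a surrogate variable, without vehicle replicate 4 and without both this library and S1P replicate 5. In the intraflagellar transport list 1 gene was higher with a surrogate variable and without both libraries, and with GC offsets 1 gene of each list was lower.

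**Figure D4:**
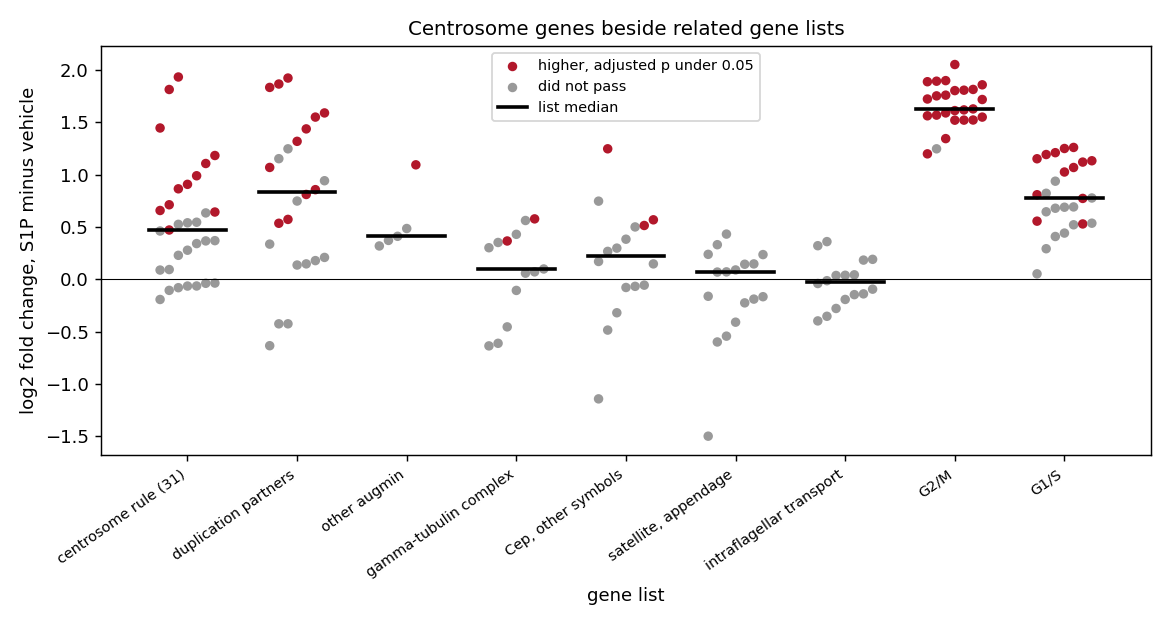
Log2 fold change, S1P minus vehicle (vertical axis), of every tested gene in the centrosome set and in 8 related lists (horizontal axis), with the list median as a black line. Medians run from -0.03 for intraflagellar transport and 0.07 for satellite and appendage genes to 0.47 for the 31 members and 1.63 for G2/M genes. The list labelled duplication partners, which includes centrosome separation and spindle genes, has a median of 0.83. Some genes are on several lists.

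Many listed cell cycle genes also rose. In edgeR with all libraries, all but Plk1 of 25 G2/M genes rose (24, median log2 fold change 1.63). DESeq2, limma-voom and edgeR with GC offsets called all 25. Of the 26 genes listed for G1/S and DNA replication, 13 rose (median 0.78). None of either list fell, while over all tested genes 5.6% rose and 2.9% fell, with a median of -0.04. The largest G2/M rises were those of the cyclins Ccnb2 at 4.15-fold and Ccnb1 at 3.73-fold, the centromere histone Cenpa at 3.72-fold and the kinesins Kif20a at 3.71-fold and Kif23 at 3.63-fold (edgeR adjusted p of 0.00247, 0.00483, 0.00355, 0.00247 and 0.00247). The largest G1/S rises were those of the origin protein Orc1 at 2.40-fold, the ribonucleotide reductase subunits Rrm1 at 2.38-fold and Rrm2 at 2.29-fold, and the replication factors Cdc45 at 2.32-fold and Mcm10 at 2.22-fold (edgeR adjusted p of 0.00922, 0.00428, 0.00899, 0.0149 and 0.0146). Of these 10 genes, only Cdc45 and Mcm10 lost their calls with a single library removed, S1P replicate 6 or 8 (edgeR adjusted p of up to 0.059). The spans of Kif20a, Orc1 and Cdc45 overlap those of other expressed genes. The 25 G2/M genes summed to 4590, 5957, 5414 and 6376 CPM in S1P libraries and to 920, 1958, 2204 and 2081 CPM in vehicle libraries, where vehicle replicate 1 was the lowest. Of the 12 members that rose, 7 were lowest in that library and 5 (Haus3, Cep70, Cep192, Cep57l1 and Cep57) in vehicle replicate 4. Over all 31 members, 11 were lowest in vehicle replicate 1 and 16 in vehicle replicate 4. The 31 members summed to 1670, 1852, 1811 and 1883 CPM in S1P libraries and to 1404, 1442, 1510 and 1301 CPM in vehicle libraries. The part of cell cycle phase in the members' rise was not tested. Of the G1/S list, 6 genes were called on removing S1P replicate 6 or 8. On removing vehicle replicate 4 there were 23, as there were on adding the surrogate variable, which mainly marks that library. Of all genes, 663 were called higher with all libraries, and 333 and 360 without S1P replicate 6 and 8 in turn. Without vehicle replicate 4 there were 1133, and with the surrogate variable 1459.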

How the data were processed

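The authors deposited whole-number counts for 18306 Ensembl genes in 8 libraries, with mm9 coordinates. The submitters' processing notes name STAR 2.5.3a and mm9. The sources used here give neither the counting tool nor its annotation and strand setting. Totals of these counts, as deposited, come to between 13750303 and 13761544, nearly equal in all libraries, and whether they were reduced to a common depth is unknown. A count of 0 allows up to 0.213 to 0.223 CPM (3 counts, counting error only). Replicates differed by more than sampling noise in all 12 pairs within a group (chi-square per degree of freedom of 10.3 to 120).

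Genes were kept with filterByExpr of edgeR 4.0.16 (minimum count 10, R 4.3.3), which left 11844, scaled by TMM and tested with edgeR's robust quasi-likelihood test, S1P against vehicle, with no covariate, Benjamini-Hochberg adjusted at 0.05 over all tested genes. A standard error is the log2 fold change divided by the root of the F statistic. Simulated counts for this comparison had 200 genes set to change, and 11747 genes were tested. The test recovered 6% of 1.5-fold, 54% of 2-fold, 96% of 4-fold and 100% of 8-fold changes, and 9.35% of its calls were false.

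The members and all gene lists were chosen with earlier results of these data known. The text names every member, up to 5 called genes of each companion list with the largest change, and Plk4, Tubg1, Plk1, Nek2 and Aurka. Companion genes outside this rule (Haus2, Haus4, Haus5, Haus7) were named after their values were seen. The Cep genes under other symbols were found by Ensembl identifier in a current name table, which holds 17497 of the 18306 identifiers. Exon length and GC content come from GENCODE M21, promoters from RefSeq (GRCm38.p6). Gene spans are in mm9 and promoter positions in GRCm38. Alternatives were DESeq2 1.42.0, limma-voom (limma 3.58.1), other scaling, other filters, 1 surrogate variable (sva 3.50.0), GC offsets, glmTreat against a 1.5-fold change and fits without single libraries.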

Additional observations from a re-analysis of the deposited data

Results flagged for a closer look

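In groups of 4 libraries, a library was singled out when its gap to the nearest other, as a share of the group's range, exceeded Dixon's critical value. Of 110 groups examined for 55 genes, 9 met this, and chance alone gives about 1 in 20. Vehicle replicate 4 accounted for 4 of them: it was high for Pcnt at 65.2 CPM (other vehicle libraries 34.7 to 37.7), for Odf2 at 84.2 CPM (58.0 to 60.9) and for Tubg1 at 44.5 CPM (17.0 to 18.3), and low for Cep63 at 27.5 CPM (35.8 to 36.6). Nek2 was low in vehicle replicate 1 at 8.31 CPM (19.3 to 20.9 in the others), and Cep135 was high in vehicle replicate 3 at 26.5 CPM (19.5 to 19.7). Among S1P libraries, Cep57 was low in replicate 5 at 46.9 CPM (52.7 to 53.4), Cep350 was high in replicate 7 at 127 CPM (114 to 115) and 5830418K08Rik was high in replicate 6 at 54.5 CPM (49.1 to 49.96). What set these libraries apart was not tested.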

How the results depend on the processing

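Called in every setting but glmTreat were 8 of the 12 members that rose: Cep55, Cep72, Stil, Sass6, Haus3, Haus6, Cep192 and Cdk5rap2. Against a 1.5-fold change, glmTreat called 2 members (Cep55 and Cep72), 21 companion genes higher, and 150 genes higher and 35 lower in all; it asks for a larger change. A surrogate variable gave 19 members (adding Pcnt, Cep290, Odf2, Cntrob, Cep78, Haus1 and Cep76), and 1459 genes higher and 992 lower in all. GC offsets gave 1067 higher and 791 lower and 2 companion genes lower. DESeq2 gave 15 members (adding Cep78, Haus1 and Cep76), and 967 genes higher and 804 lower in all. Removing a single library, or both vehicle replicate 4 and S1P replicate 5, left 8 to 18 members higher (17 without vehicle replicate 4 alone) and 0 lower. Over the same 9 fits, 31 to 78 companion genes were higher (75 without vehicle replicate 4; 53 with all libraries) and 0 to 1 lower, and of all genes 333 to 1178 were higher and 101 to 934 lower (1133 and 723 without vehicle replicate 4). The cause was not tested. Small log2 fold changes that met no threshold changed sign. In the 9 fits they spanned -0.0215 to 0.168 for Pcm1, -0.047 to 0.124 for Cep63, -0.35 to 0.147 for Cep250, -0.177 to 0.105 for Cep164, -0.187 to 0.0784 for Cep97, -0.14 to 0.0047 for Cep120 and -0.135 to 0.0212 for Cep170. With GC offsets they were -0.0691 for Pcm1, 0.0853 for Cep250 and 0.14 for Cep164, and with a surrogate variable 0.0494 for Cep250 and 0.0599 for Cep164. No paired analysis was possible because the groups share no library number. With the spread and group sizes of these libraries and 200 genes set to change, changes under 2-fold were often missed in simulated data. In the real data 1007 genes were called, so the simulated rates may not carry over to them. The simulation varied neither library totals nor spread, and it drew each gene separately, without the GC-linked shift of vehicle replicate 4.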
